A study of Rattus norvegicus with 30 samples.

Results

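Cytochrome P450 enzymes outside sterol metabolism were followed in rat liver after resections of different size. Members were taken as the probe sets with exactly 1 gene symbol, where that symbol began with Cyp and a digit. The 5 genes of sterol and bile acid synthesis named Cyp7a1, Cyp7b1, Cyp8b1, Cyp27a1 and Cyp51 were left out. This gave 69 probe sets for 68 genes, of 18166 genes measured: 2 genes of family 1, 35 of family 2, 5 of family 3, 12 of family 4 and 14 of other families.

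P450 enzymes are haem proteins of the endoplasmic reticulum and mitochondria that insert an oxygen atom into their substrates, with electrons passed on by P450 reductase, cytochrome b5 or, in mitochondria, ferredoxin. Families 1 to 3 handle most drugs and other foreign compounds, and in the rat many of them also hydroxylate steroids in a pattern set by sex and growth hormone. Family 4 acts mainly on fatty acids and their signalling derivatives, and the remaining families make or break down hormones, retinoids and vitamin D. The hepatocyte holds most of the liver's P450, and its genes answer to nuclear receptors such as the pregnane X receptor and PPAR-alpha, to the aryl hydrocarbon receptor and to factors such as C/EBP-alpha and HNF4-alpha.

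The livers came from 30 Wistar rats of wild type genotype, 6 in each of 5 groups: partial hepatectomy of 30% (PH30), 70% (PH70) or 90% (PH90), no operation, and a sham operation. Livers were sampled 24 hours after the operation, and RNA of each rat was hybridised to 1 Rat Gene 2.0 ST array. Sex and age are not stated in the labels. The deposited log2 values are centred on each probe set's median over the 30 arrays, so 0 is that median, differences between rats are kept, and neither a gene's level nor the tissue's markers can be judged by level. In tissue samples, fewer cells of a type and less RNA per cell cannot be told apart. Near-identical neighbours in the Cyp2a, 2b, 2c, 2d, 3a and 4a groups may share probe signal, so the split between such genes is uncertain.

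A pair of arrays stood away from their groups over all genes: rat 95 of PH30 correlated with its group at -0.113 on average (its 5 companions at 0.18 to 0.245), and rat 139 of PH70 at -0.114 (companions at 0.493 to 0.546). Over the P450 genes alone, rat 95 averaged -0.076 with its group (companions at 0.01 to 0.143) and 0.542 with PH70, and rat 139 averaged -0.029 with its group (companions at 0.475 to 0.545). Both were kept. Without them, 3 of 116 calls for the named genes were lost and 11 gained, and those of PH30 or PH70 against sham or each other are given in both ways. The unoperated rats carry the highest rat numbers, so an effect of order and the lack of an operation cannot be told apart in any comparison with them.

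More P450 genes were called lower than in sham as the resection grew. Against sham, 8 of 68 genes were lower and 1 higher in PH30, where 3.34% of all genes were called lower and 2.2% higher. In PH70, 16 were lower and 4 higher, against 8.15% and 10.5% of all genes. In PH90, 29 were lower and 7 higher, against 14.7% and 19.9% of all genes. As shares of the 68, the genes called lower made up 11.8%, 23.5% and 42.6%, each above the share among all genes, and those called higher made up 1.47%, 5.88% and 10.3%, each below it. A call is an adjusted p below 0.05 in limma, adjusted over all 18166 genes. The lower counts rose in the order PH30, PH70, PH90 under the other settings too, but with steps of another size: 11, 21 and 28 with only the groups compared in the fit, 8, 21 and 27 with array weights, 13, 21 and 25 after quantile normalization, and 12, 24 and 28 against unoperated rats in place of sham. Calls that differ against unoperated rats are given with each gene, and besides those Cyp2c13, Cyp2f4, Cyp3a18, Cyp4f6 and Cyp4f17 were lower than in unoperated rats in PH70 and Cyp2b15 was higher in PH30, none of them called there against sham. The PH30 count of lower genes was 4 without sham rat 114 or 143 and 5 without sham rat 45 or PH30 rats 95 or 99, and the PH70 count of higher genes was 2 without sham rat 112. No share of all genes was taken under these other settings or without single rats, so those counts are given as values alone. The ranges of the 6 resected and 6 sham rats did not overlap for 7 lower and 0 higher genes in PH30 (2.26% and 1.63% of all genes), 15 lower and 0 higher in PH70 (2.98% and 4.36%), and 23 lower and 3 higher in PH90 (8.48% and 12.1%).

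The median of the 68 differences in PH90 against sham was -0.097, close to the -0.0022 over all genes, and 32 members were not called; these ran from -0.54 to 0.34, and the called ones from -3.86 to 2.87. Group means fell in the order sham, PH30, PH70, PH90 for 21 of 68 genes (30.9%, against 11.8% of all genes). They rose in that order for 5 (7.35%, against 11%). Averaged over the 68 genes, each PH90 rat lay between -0.80 and -0.28, below every other rat, and the sham rats lay between 0.056 and 0.18.

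**Figure D1:**
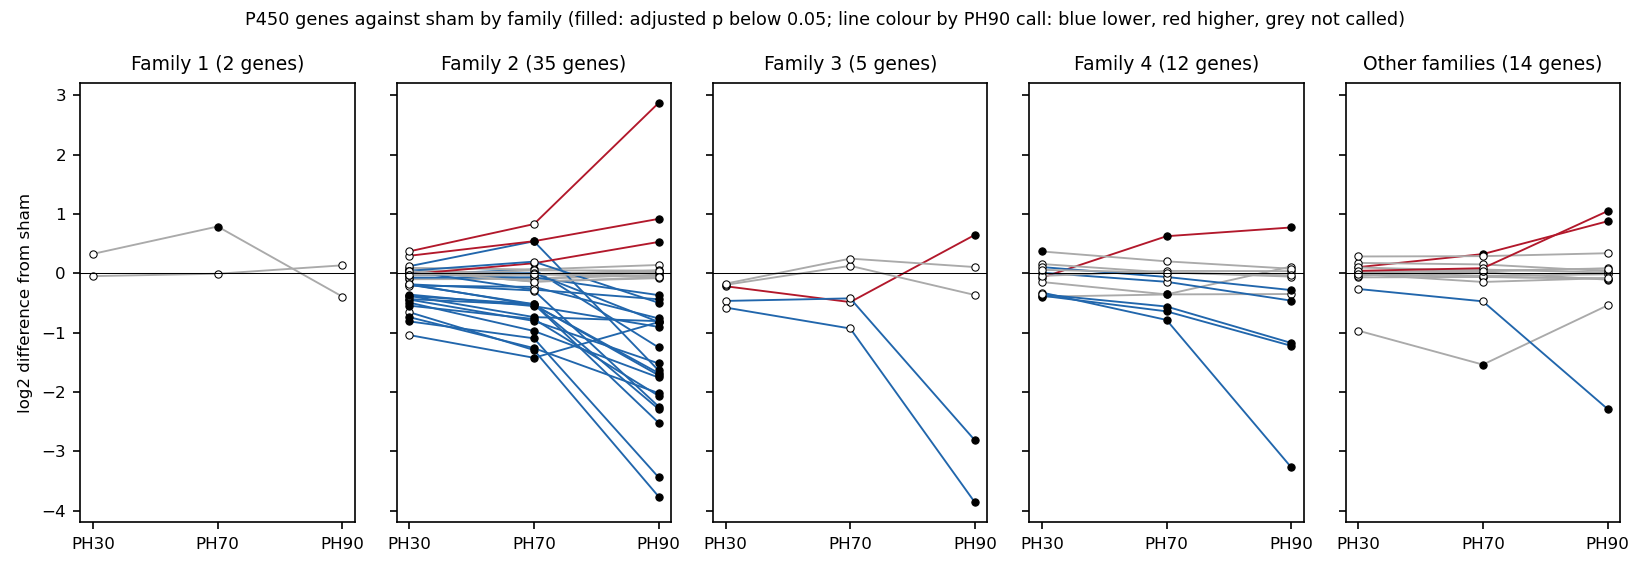
Log2 difference from sham (vertical axis) in PH30, PH70 and PH90 for each of the 68 P450 genes, 1 line per gene and 1 panel per family; filled points have an adjusted p below 0.05 and line colour gives the call in PH90. Families 2, 3 and 4 hold the deepest falls in PH90, down to -3.86. Most genes of the other families stay near 0, but Cyp39a1 lies at -2.28 in PH90.

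Family 1 was represented by Cyp1a1 and Cyp1b1, which oxidise polycyclic aromatic compounds and are targets of the aryl hydrocarbon receptor. Cyp1a1 was highest in PH70 and lowest in PH90. Its log2 values ran from -0.48 to 0.12 (median -0.080) in sham, from -0.13 to 0.45 (median 0.29) in PH30, from -0.019 to 1.17 (median 0.64) in PH70 and from -0.90 to 0.14 (median -0.56) in PH90. Of the PH70 rats 5 lay above every sham rat, 1 lay within the sham range, and 5 of the PH90 rats lay at or below the lowest sham rat. The rise in PH70 over sham was 1.73-fold (log2 difference 0.79, SE 0.17, adjusted p = 9.7e-04), and PH90 was 2.27-fold below PH70 (log2 difference -1.18, SE 0.17, adjusted p = 3.1e-06; n = 6 rats per group here and throughout, limma). Of all genes, 10.4% were called lower in PH90 than in PH70. Against sham, the PH90 value of Cyp1a1 was not called (-0.39, SE 0.17, adjusted p = 0.073). Cyp1b1 was not called in any of the 7 comparisons, but was higher in PH90 than in unoperated rats (0.26, adjusted p = 0.015); its PH90 difference from sham was 0.14, with a 95% interval of -0.033 to 0.30.

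Family 2 carried most of the falls: 21 of its 35 genes were lower and 3 higher in PH90 than in sham, with a median difference of -0.76. In PH70, 11 were lower and 1 higher, and in PH30, 6 were lower and 0 higher by limma (9 and 1 at an unadjusted p below 0.05). Of all genes, 14.7% were lower and 19.9% higher in PH90, 8.15% and 10.5% in PH70, and 3.34% and 2.2% in PH30. The Cyp2b group, the drug-metabolising enzymes known for their induction by phenobarbital through the constitutive androstane receptor, had 3 of 7 genes lower in PH90. Its neighbours Cyp2b1 and Cyp2b2 lie with 1 other protein-coding gene between them on chromosome 1. The 250 bases before their starts are shown because they are alike, while their values in PH90 were not. Aligned, they were identical in 225 of 267 columns (84.3%). Gaps count as differences there, and the windows are offset, so their unmatched ends lower this share. Capitals mark the letters TTNNGCAA of the C/EBP motif, read on either strand, beginning 70 bases before the start in Cyp2b1 and 87 in Cyp2b2. In Cyp2b1 they also mark TGTTTAC of the forkhead motif, in the first letters of the window. The window of Cyp2b2 begins further along the shared sequence, so that stretch was not searched in Cyp2b2. The promoters are those of RefSeq on GRCr8, Cyp2b1 at chr1:90645869-90646118, plus strand and Cyp2b2 at chr1:90722031-90722280, plus strand.
Cyp2b1: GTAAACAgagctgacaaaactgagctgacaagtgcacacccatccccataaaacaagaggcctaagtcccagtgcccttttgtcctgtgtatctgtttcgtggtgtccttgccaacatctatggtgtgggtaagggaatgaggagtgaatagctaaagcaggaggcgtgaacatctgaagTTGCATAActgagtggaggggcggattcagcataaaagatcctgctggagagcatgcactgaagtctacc
Cyp2b2: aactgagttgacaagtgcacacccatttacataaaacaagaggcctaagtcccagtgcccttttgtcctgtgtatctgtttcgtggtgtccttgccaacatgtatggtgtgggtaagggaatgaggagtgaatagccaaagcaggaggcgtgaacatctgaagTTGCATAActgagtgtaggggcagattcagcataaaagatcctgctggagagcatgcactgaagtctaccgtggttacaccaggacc

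Cyp2b2 was lower in PH70 and, far more deeply, in PH90. Its log2 values ran from 0.16 to 1.13 (median 0.70) in unoperated rats, from -0.16 to 1.54 (median 0.73) in sham, from -0.75 to 1.22 (median -0.11) in PH30, from -2.28 to 0.53 (median -0.44) in PH70 and from -3.37 to -2.86 (median -3.05) in PH90. The PH90 rats formed a tight group below all others, and the remaining groups overlapped. Cyp2b2 was 13.6-fold lower in PH90 than in sham (log2 difference -3.76, SE 0.34, adjusted p = 3.8e-10) and 2.45-fold lower in PH70 (-1.29, SE 0.34, adjusted p = 0.0068). Its PH30 difference was not called (-0.65, SE 0.34, adjusted p = 0.29).

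Cyp2b1 had another shape. In sham its values ran from -0.002 to 1.84 (median 0.43), in PH30 from -1.22 to 0.44 (median -0.74), in PH70 from -1.42 to -0.45 (median -0.82) and in PH90 from -1.59 to 0.35 (median -0.037). The PH70 rats all lay below the sham rats, whereas the PH90 rats overlapped both groups. The fall was 2.68-fold in PH70 (log2 difference -1.42, SE 0.32, adjusted p = 0.0019) and 1.77-fold in PH90 (-0.82, SE 0.32, adjusted p = 0.049). The PH90 call was lost with any one of sham rats 41, 114, 141 and 143 or PH90 rats 43, 87, 106 and 111 left out, with a log2 difference of -0.55 without PH90 rat 106 and -0.57 without sham rat 141. The PH30 difference of Cyp2b1 narrowly missed the threshold (-1.04, SE 0.32, adjusted p = 0.054) and was called against unoperated rats (-1.17, adjusted p = 0.019). Cyp2b3, which lies next to Cyp2b2, was lower in PH90 (-0.37, SE 0.084, adjusted p = 7.8e-04), and the other 4 Cyp2b genes were not called, with differences between -0.081 and 0.050.

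The Cyp2c group holds rat liver's major sex-patterned steroid hydroxylases and several arachidonic acid oxygenases. All 7 of its genes were called in PH90, 5 lower and 2 higher, beside 14.7% of all genes lower and 19.9% higher. The pair Cyp2c11 and Cyp2c55 lie with 1 other protein-coding gene between them on chromosome 1 and went in opposite directions. Their RefSeq promoters on GRCr8 were identical in 183 of 271 alignment columns (67.5%), gaps counted as differences. They lie at chr1:246174966-246175215, plus strand, for Cyp2c11 and chr1:246421533-246421782, plus strand, for Cyp2c55. Capitals mark AGGTCA, the core letters bound by nuclear receptors, beginning 123 and 118 bases before the start, and TATAAA, the TATA box, beginning 31 and 29 bases before it.
Cyp2c11: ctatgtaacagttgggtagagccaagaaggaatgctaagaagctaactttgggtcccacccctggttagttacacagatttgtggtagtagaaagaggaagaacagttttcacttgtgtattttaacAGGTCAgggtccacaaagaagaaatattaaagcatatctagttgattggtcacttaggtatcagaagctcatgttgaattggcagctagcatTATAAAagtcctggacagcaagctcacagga
Cyp2c55: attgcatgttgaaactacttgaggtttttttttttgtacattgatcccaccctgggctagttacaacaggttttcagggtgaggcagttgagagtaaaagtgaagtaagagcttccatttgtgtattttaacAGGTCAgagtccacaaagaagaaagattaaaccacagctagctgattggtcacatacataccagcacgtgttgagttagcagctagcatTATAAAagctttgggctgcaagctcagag

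Cyp2c11, the major male-pattern testosterone hydroxylase of rat liver, fell in all 3 resections. Its log2 values ran from 0.84 to 1.22 (median 1.002) in unoperated rats, from 0.46 to 0.92 (median 0.71) in sham, from -0.45 to 0.25 (median -0.10) in PH30, from -0.70 to -0.0067 (median -0.40) in PH70 and from -3.45 to -2.08 (median -2.78) in PH90. No resected rat reached the lowest sham rat, PH30 and PH70 overlapped, and PH90 lay apart below them. The falls from sham were 1.75-fold in PH30 (log2 difference -0.81, SE 0.18, adjusted p = 0.0081), 2.13-fold in PH70 (-1.09, SE 0.18, adjusted p = 5.2e-05) and 10.8-fold in PH90 (-3.44, SE 0.18, adjusted p = 3.8e-15). PH70 did not differ from PH30 by the test (-0.29, SE 0.18, adjusted p = 0.43), with a 95% interval of -0.65 to 0.076.

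Cyp2c55, which can hydroxylate arachidonic acid, had the largest rise among the P450 genes. Its values ran from -0.97 to 0.20 (median -0.48) in sham, from -0.81 to 0.97 (median -0.13) in PH30, from -0.30 to 1.31 (median 0.38) in PH70 and from 0.56 to 3.97 (median 2.53) in PH90. Every PH90 rat lay above every sham rat, but the PH90 rats spread over more than 3 log2 units and the lowest overlapped PH30 and PH70. The rise in PH90 was 7.32-fold (log2 difference 2.87, SE 0.41, adjusted p = 1.2e-06). In PH70 it was not called (0.83, SE 0.41, adjusted p = 0.18).

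Cyp2c13, another male-pattern enzyme, and Cyp2c12, the female-pattern steroid sulphate hydroxylase, were both lower in PH90. For Cyp2c13 the sham values ran from -0.046 to 0.28 (median 0.17) and the PH90 values from -2.59 to -1.66 (median -2.05), with the 6 PH90 rats below all 24 others. The fall was 4.74-fold (log2 difference -2.24, SE 0.11, adjusted p = 1.1e-15). Cyp2c12 ran from -0.73 to 0.38 (median 0.12) in sham and from -3.30 to 0.27 (median -1.72) in PH90, and the groups overlapped. Its fall (log2 difference -1.64, SE 0.43, adjusted p = 0.003) was not called against unoperated rats (-1.04, adjusted p = 0.064) or after quantile normalization (-0.73, adjusted p = 0.083).

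Cyp2c23, the main arachidonic acid epoxygenase of this group, fell in steps. In sham the rats ran from 0.14 to 0.59 (median 0.40), in PH30 from -0.29 to 0.042 (median 0), in PH70 from -1.21 to -0.062 (median -0.53) and in PH90 from -1.60 to -1.03 (median -1.37). Each resection lay wholly below sham, and PH70 and PH90 overlapped. Differences from sham were -0.49 in PH30 (adjusted p = 0.017), -0.97 in PH70 (adjusted p = 4.9e-06) and -1.75 in PH90 (adjusted p = 2.5e-12). Cyp2c6v1, with 3 other protein-coding genes between it and Cyp2c12, was lower in PH70 (-0.53, SE 0.17, adjusted p = 0.028) and PH90 (-1.72, SE 0.17, adjusted p = 2.2e-09). The PH70 call of Cyp2c6v1 was lost against unoperated rats (-0.41, adjusted p = 0.097). Cyp2c22, a retinoic acid hydroxylase, went the other way: its values ran from -0.81 to -0.18 (median -0.50) in sham, from -0.48 to 0.38 (median 0.087) in PH70 and from 0.39 to 0.52 (median 0.43) in PH90. The PH90 rats were tightly grouped above every other rat. The rise was 1.89-fold in PH90 (log2 difference 0.92, SE 0.12, adjusted p = 2.6e-07) and 1.46-fold in PH70 (0.54, SE 0.12, adjusted p = 0.0013). Against unoperated rats the PH70 difference shrank to 0.15 (adjusted p = 0.46), and the difference of sham from unoperated rats was not called (-0.39, SE 0.12, adjusted p = 0.14) with all rats but was called without rats 95 and 139 (adjusted p = 0.029).

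**Figure D2:**
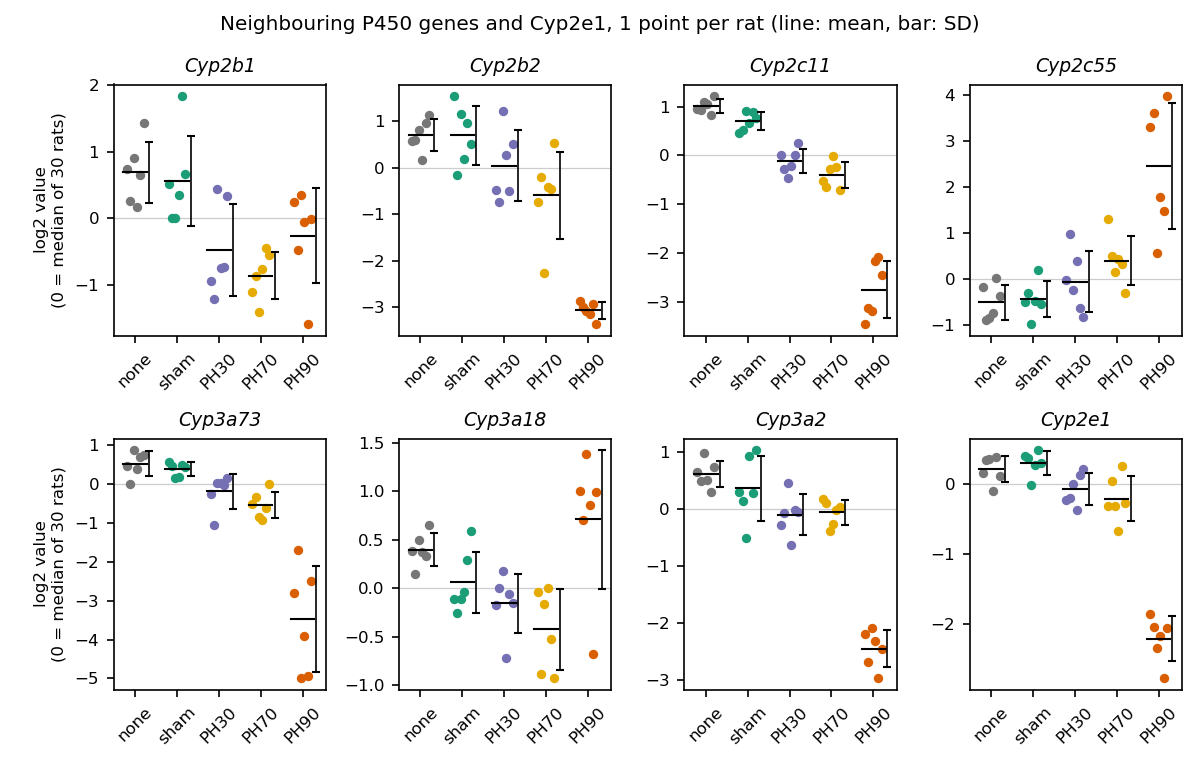
Centred log2 value (vertical axis, 0 is the median of the 30 rats) of 7 P450 genes that lie near one another in pairs or threes, and of Cyp2e1, with 1 point per rat, the group mean as a line and the SD as a bar; "none" is the unoperated group. In PH90, Cyp2b2, Cyp2c11, Cyp3a73, Cyp3a2 and Cyp2e1 lie below all other rats, Cyp2c55 lies above every sham rat, and Cyp2b1 and Cyp3a18 overlap sham.

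Cyp2e1, the ethanol-inducible enzyme that also activates paracetamol and carbon tetrachloride, fell mainly in PH90. Log2 values of Cyp2e1 ran from -0.0071 to 0.49 (median 0.34) in sham, from -0.36 to 0.23 (median -0.097) in PH30, from -0.66 to 0.27 (median -0.28) in PH70 and from -2.77 to -1.86 (median -2.11) in PH90. The PH90 rats lay far below the others, and PH30 and PH70 overlapped sham. The fall was 5.73-fold in PH90 (log2 difference -2.52, SE 0.14, adjusted p = 1.8e-14) and 1.43-fold in PH70 (-0.52, SE 0.14, adjusted p = 0.008).

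In the Cyp2a group, steroid hydroxylases on chromosome 1, Cyp2a2 and Cyp2a1 were lower in PH90 and Cyp2a3 was not called. Cyp2a2, a male-pattern enzyme, ran from -0.028 to 0.37 (median 0.16) in sham, from -0.40 to -0.31 (median -0.37) in PH70 and from -3.14 to -1.36 (median -2.03) in PH90. The PH70 rats were packed tightly just below the sham range, and the PH90 rats were well below them. The fall was 4.88-fold in PH90 (log2 difference -2.29, SE 0.19, adjusted p = 5.3e-11), and the PH70 difference missed the threshold (-0.52, SE 0.19, adjusted p = 0.051). It was called under 6 alternatives, among them without rats 95 and 139 (-0.51, adjusted p = 0.043), after quantile normalization (-0.61, adjusted p = 0.0011) and against unoperated rats (-0.67, adjusted p = 0.01). Cyp2a1 ran from -0.29 to 0.30 (median -0.059) in sham and from -2.19 to -0.30 (median -1.14) in PH90, with the ranges touching but not overlapping. It was 2.38-fold lower (log2 difference -1.25, SE 0.21, adjusted p = 1.7e-05) and in PH70 lay at the sham mean (0.065).

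The Cyp2d group, which oxidises many basic drugs, had all 4 genes lower in PH90, beside 14.7% of all genes. Cyp2d2, the rat debrisoquine hydroxylase, ran from 0.25 to 0.58 (median 0.32) in sham, from -0.26 to 0.11 (median -0.11) in PH30, from -0.89 to 0.054 (median -0.46) in PH70 and from -1.39 to -0.87 (median -1.15) in PH90. Each resected group lay below the sham range, and neighbouring resections overlapped. Differences from sham were -0.44, SE 0.10, adjusted p = 0.013 in PH30, -0.80, SE 0.10, adjusted p = 5.6e-06 in PH70 and -1.52, SE 0.10, adjusted p = 1.9e-12 in PH90. Cyp2d3 fell alike (-0.54, -0.77 and -2.06, adjusted p = 0.008, 3.1e-05 and 4.3e-14). Cyp2d4 and Cyp2d5 were called in PH90 alone of the 3 resections, at -0.76 (adjusted p = 1.3e-04) and -1.68 (adjusted p = 2.0e-04). Against unoperated rats Cyp2d4 was also lower in PH30 (-0.61, adjusted p = 0.008) and PH70 (-0.63, adjusted p = 0.0027).

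The Cyp2j group makes epoxides from arachidonic acid, and its 4 neighbours on chromosome 5 did not move together. Cyp2j3 ran from 0.19 to 0.90 (median 0.50) in sham, from -0.97 to 0.10 (median -0.049) in PH30, from -1.45 to 0.16 (median -0.75) in PH70 and from -2.32 to -1.22 (median -1.28) in PH90. No resected rat reached the sham range. The falls were -0.74, SE 0.21, adjusted p = 0.037 in PH30, -1.26, SE 0.21, adjusted p = 7.7e-05 in PH70 and -2.02, SE 0.21, adjusted p = 5.5e-09 in PH90. The PH30 call was lost without PH30 rat 95 (-0.58, adjusted p = 0.073) and without any one of PH30 rats 65, 98 and 130 or sham rats 41, 45, 112, 114 and 143. Cyp2j4 was lower in PH70 (-0.74, adjusted p = 0.026) and PH90 (-0.80, adjusted p = 0.0075), Cyp2j10 was higher in PH90 (0.53, adjusted p = 0.022) and Cyp2j16 was not called. Against unoperated rats Cyp2j4 was also lower in PH30 (-0.76, adjusted p = 0.038), and the Cyp2j10 difference was not called (0.33, adjusted p = 0.19).

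Among single-member groups of family 2, Cyp2t1 fell in every resection, by -0.36, SE 0.095, adjusted p = 0.025 in PH30, -0.55, SE 0.095, adjusted p = 1.1e-04 in PH70 and -0.90, SE 0.095, adjusted p = 6.6e-09 in PH90. It was also the 1 P450 gene called between sham and unoperated rats, where 0.429% of all genes were called lower and 0.308% higher. By limma 0 P450 genes were higher there (6 lower and 1 higher at an unadjusted p below 0.05). Its values ran from 0.51 to 1.08 (median 0.80) in unoperated rats, from 0.065 to 0.58 (median 0.40) in sham, from -0.13 to 0.28 (median 0) in PH30, from -0.50 to -0.055 (median -0.12) in PH70 and from -0.70 to -0.31 (median -0.49) in PH90. Sham overlapped unoperated at its upper end and PH30 at its lower end. The difference between sham and unoperated rats (log2 difference -0.43, SE 0.095, adjusted p = 0.024) lost its call, at adjusted p = 0.054 to 0.07, without any one of sham rats 45, 112 and 141 or unoperated rats 147, 148 and 150, and the PH30 call was lost without PH30 rat 99 or sham rats 114 or 143. Cyp2r1, the main vitamin D hydroxylase of liver, was lower in PH90 alone of the 3 resections, by 1.41-fold (log2 difference -0.50, SE 0.11, adjusted p = 3.6e-04). Its PH70 mean lay above sham without a call (0.20, adjusted p = 0.23). Cyp2u1, which hydroxylates long-chain fatty acids, stayed at the sham mean in PH30 and PH70 (-0.024 and 0.0055, not called) and was lower in PH90 (-0.82, SE 0.13, adjusted p = 5.1e-06).

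Family 3 holds the Cyp3a steroid and drug hydroxylases controlled by the pregnane X receptor. In PH90, 2 of its 5 genes were lower, 1 higher and 2 not called, beside 14.7% of all genes lower and 19.9% higher. A neighbourhood on chromosome 12 holds 4 of the 5, all but Cyp3a9. By limma 0 of the 5 were called in PH30 or PH70, although 1 and 3 were lower at an unadjusted p below 0.05. The RefSeq promoters of 3 of them (GRCr8; Cyp3a73 at chr12:14079540-14079789, minus strand, Cyp3a18 at chr12:13994062-13994311, plus strand and Cyp3a2 at chr12:14343858-14344107, minus strand) are shown because adjacent genes moved apart. Capitals mark TTCNNNGAA of the STAT5 motif in Cyp3a73, and CAAAGTCCA of the HNF4 element, TGTTTAC, TTNNGCAA and AGGTCA in Cyp3a2. None of the 6 motifs searched occurs in the window of Cyp3a18. The promoters of Cyp3a73 and Cyp3a18, which stand next to each other, were identical in 129 of 275 alignment columns (46.9%). Pairs of shown promoters from different families gave 41.4% to 52.3%, so this share does not set the neighbours apart from unrelated pairs.
Cyp3a73: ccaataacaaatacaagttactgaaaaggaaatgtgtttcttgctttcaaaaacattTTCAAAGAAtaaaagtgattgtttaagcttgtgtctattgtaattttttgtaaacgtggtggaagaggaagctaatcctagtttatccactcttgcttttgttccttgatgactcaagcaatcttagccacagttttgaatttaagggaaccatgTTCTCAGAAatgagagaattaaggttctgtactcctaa
Cyp3a18: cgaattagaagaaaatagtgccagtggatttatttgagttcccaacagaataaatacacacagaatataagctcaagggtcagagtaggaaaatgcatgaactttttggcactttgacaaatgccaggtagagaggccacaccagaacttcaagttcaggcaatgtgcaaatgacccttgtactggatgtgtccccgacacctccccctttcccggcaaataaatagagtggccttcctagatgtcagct
Cyp3a2: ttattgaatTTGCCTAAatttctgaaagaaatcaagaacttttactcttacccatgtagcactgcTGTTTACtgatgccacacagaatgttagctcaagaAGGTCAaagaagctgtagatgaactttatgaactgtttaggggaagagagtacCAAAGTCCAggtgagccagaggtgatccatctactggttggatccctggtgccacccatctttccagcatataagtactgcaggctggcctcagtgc

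Cyp3a73 had the deepest fall of all P450 genes. Its log2 values ran from 0.17 to 0.57 (median 0.46) in sham, from -1.05 to 0.15 (median 0.0017) in PH30, from -0.92 to -0.0018 (median -0.56) in PH70 and from -4.99 to -1.68 (median -3.36) in PH90. The PH90 rats spread widely, and all lay below every other rat. The fall in PH90 was 14.5-fold (log2 difference -3.86, SE 0.37, adjusted p = 8.6e-10). The PH70 difference (-0.93, SE 0.37, adjusted p = 0.078) was called without rats 95 and 139 (-1.04, adjusted p = 0.042) and against unoperated rats (-1.07, adjusted p = 0.038). Cyp3a2, a male-pattern testosterone hydroxylase, ran from -0.52 to 1.03 (median 0.29) in sham, from -0.65 to 0.46 (median -0.070) in PH30, from -0.38 to 0.17 (median -0.0008) in PH70 and from -2.97 to -2.09 (median -2.39) in PH90. Sham, PH30 and PH70 overlapped, and PH90 lay apart below them. The fall was 7.03-fold (log2 difference -2.81, SE 0.20, adjusted p = 2.8e-12); against sham the PH70 difference was -0.42 and was not called, while against unoperated rats PH30 (-0.71, adjusted p = 0.019) and PH70 (-0.67, adjusted p = 0.016) were lower.

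Cyp3a18, also a steroid hydroxylase, was highest in PH90. Its values ran from 0.14 to 0.65 (median 0.38) in unoperated rats, from -0.26 to 0.59 (median -0.074) in sham, from -0.93 to -0.0011 (median -0.34) in PH70 and from -0.68 to 1.39 (median 0.92) in PH90. Of the PH90 rats 5 lay above every sham rat, and rat 106 lay below all of them. The difference from sham (log2 difference 0.65, SE 0.23, adjusted p = 0.028) was not called against unoperated rats (0.31, adjusted p = 0.36) or without any one of PH90 rats 39, 61, 87 and 111 or sham rats 41, 45, 112 and 114, while the difference from PH70 was larger (1.13, SE 0.23, adjusted p = 3.9e-04). Cyp3a9 and Cyp3a23-3a1 were not called in any comparison, with PH90 differences from sham of 0.11 (95% interval -0.62 to 0.84) and -0.36 (95% interval -1.07 to 0.34).

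In family 4, 5 of 12 genes were lower and 1 higher in PH90. In PH70, 4 were lower and 1 higher, and in PH30, 2 were lower and 1 higher. Of all genes, 14.7% were lower and 19.9% higher in PH90, 8.15% and 10.5% in PH70, and 3.34% and 2.2% in PH30. The Cyp4f group, which inactivates leukotrienes and other lipid mediators by omega-hydroxylation, held 4 of the 5 genes lower in PH90. Cyp4f4 ran from 0.22 to 0.57 (median 0.31) in sham, from -0.99 to 0.43 (median 0.16) in PH30, from -0.67 to -0.023 (median -0.48) in PH70 and from -4.04 to -1.93 (median -2.92) in PH90. PH70 lay below sham and PH90 far below both, while PH30 overlapped sham. The fall was 9.63-fold in PH90 (log2 difference -3.27, SE 0.24, adjusted p = 4.2e-12) and 1.72-fold in PH70 (-0.78, SE 0.24, adjusted p = 0.017); against unoperated rats the PH70 difference was -0.54 (adjusted p = 0.12). Cyp4f1 fell in all 3 resections, by -0.38, SE 0.11, adjusted p = 0.04 in PH30, -0.64, SE 0.11, adjusted p = 9.6e-05 in PH70 and -1.22, SE 0.11, adjusted p = 3.0e-10 in PH90. Its PH30 call was lost without rats 95 and 139 (-0.34, adjusted p = 0.057) and without any one of PH30 rats 65, 95, 98 and 99 or sham rats 45, 112, 114, 141 and 143. Smaller falls were called in PH90 for Cyp4f17 (-0.46, adjusted p = 0.0015) and Cyp4f6 (-0.28, adjusted p = 0.029).

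Cyp4f5 was the 1 P450 gene called higher in PH30 (0.37, SE 0.11, adjusted p = 0.048). Its values ran from -0.54 to 0.16 (median -0.13) in sham and from -0.041 to 0.37 (median 0.28) in PH30, and the groups overlapped. The call was lost without rats 95 and 139 (0.34, adjusted p = 0.056) and without any one of PH30 rats 65, 95, 98, 99 and 130 or sham rats 45, 141 and 143. Cyp4v3, a fatty acid hydroxylase, was lower in PH70 (-0.56, SE 0.14, adjusted p = 0.0038) and PH90 (-1.17, SE 0.14, adjusted p = 4.6e-08).

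Cyp4a1, the fatty acid omega-hydroxylase known as a target of PPAR-alpha, rose. Sham rats ran from -0.51 to 0.45 (median -0.13), PH30 rats from -0.98 to 0.50 (median -0.18), PH70 rats from 0.13 to 0.78 (median 0.60) and PH90 rats from 0.32 to 1.17 (median 0.63). PH70 and PH90 overlapped each other in part, and both overlapped the sham range at its upper end. The rise was 1.54-fold in PH70 (log2 difference 0.63, SE 0.19, adjusted p = 0.018) and 1.71-fold in PH90 (0.77, SE 0.19, adjusted p = 0.0015), and the PH70 call was lost without sham rat 112 (0.55, adjusted p = 0.052). Cyp4a8, its relative nearby, was not called (-0.35, SE 0.21, adjusted p = 0.22 in PH90). Cyp4b1, which acts on short fatty acids and activates some toxins, was lower in PH30 and PH70 and was not called in PH90. It ran from -0.097 to 0.28 (median 0.13) in sham, from -0.47 to -0.025 (median -0.29) in PH30, from -0.51 to 0.11 (median -0.32) in PH70 and from -0.049 to 0.55 (median 0.20) in PH90. Differences from sham were -0.39, SE 0.12, adjusted p = 0.044 in PH30 and -0.36, SE 0.12, adjusted p = 0.03 in PH70, and PH90 was above PH70 (0.47, SE 0.12, adjusted p = 0.0026). The PH30 call was lost without any one of PH30 rats 95, 98, 99, 130 and 140 or sham rats 41, 45, 112, 114 and 143, at -0.42 to -0.36. The PH70 call was lost without any one of PH70 rats 37, 58, 97 and 136 or sham rats 41, 45 and 112, at -0.35 to -0.30.

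Among the other families, 1 of 14 genes was lower, 2 higher and 11 not called in PH90. Of all genes, 14.7% were lower and 19.9% higher there. Cyp17a1, the hydroxylase and lyase of androgen synthesis, was lowest in PH70. Sham rats ran from -0.061 to 1.26 (median 0.18), PH30 rats from -1.42 to 0.0098 (median -0.63), PH70 rats from -1.95 to 0.61 (median -1.54) and PH90 rats from -1.62 to 1.07 (median -0.10). Of the PH70 rats 5 lay below all sham rats and rat 139 lay within their range, as did PH90 in part. The fall was 2.9-fold in PH70 (log2 difference -1.54, SE 0.40, adjusted p = 0.0056) and was not called in PH30 (-0.96, SE 0.40, adjusted p = 0.16) or PH90 (-0.54, SE 0.40, adjusted p = 0.34). PH90 against PH70 was 0.998 (adjusted p = 0.068) with all rats and 1.36 (adjusted p = 0.0039) without rats 95 and 139.

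The genes of retinoic acid breakdown differed: Cyp26b1 rose in PH90, and Cyp26a1 and Cyp26c1 were not called in any comparison. Cyp26b1 ran from -0.24 to 0.24 (median -0.12) in sham, from -0.11 to 0.12 (median 0.015) in PH70 and from 0.23 to 1.77 (median 0.86) in PH90. The lowest PH90 rat lay at the highest sham value and the other PH90 rats above it. The rise was 2.07-fold (log2 difference 1.05, SE 0.19, adjusted p = 3.2e-05). Cyp20a1, an orphan enzyme, ran from -0.24 to 0.080 (median -0.18) in sham, from -0.017 to 0.39 (median 0.24) in PH70 and from 0.43 to 0.95 (median 0.76) in PH90, with PH90 above both. It was 1.84-fold higher in PH90 (log2 difference 0.88, SE 0.10, adjusted p = 5.2e-08) and 1.25-fold higher in PH70 (0.33, SE 0.10, adjusted p = 0.026). The PH70 call was lost against unoperated rats (0.22, adjusted p = 0.15) and without any one of PH70 rats 58, 97 and 136 or sham rats 112 and 114.

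Cyp39a1, an oxysterol hydroxylase that the naming rule keeps, fell 4.87-fold in PH90 (log2 difference -2.28, SE 0.21, adjusted p = 5.3e-10). Its values ran from 0.096 to 0.28 (median 0.19) in sham, from -0.50 to -0.16 (median -0.25) in PH70 and from -3.16 to -1.07 (median -2.02) in PH90, where all rats lay below the rest. The PH70 difference of Cyp39a1 from sham (-0.47) was not called. It was called with only the groups compared in the fit, with array weights, after quantile normalization and against unoperated rats (-0.70, adjusted p = 0.017). The steroid-forming Cyp11a1, Cyp11b1, Cyp11b2, Cyp11b3, Cyp19a1 and Cyp21a1, the vitamin D-degrading Cyp24a1 and the brain cholesterol hydroxylase Cyp46a1 were not called in any comparison of a resection with sham. Because levels are not known here, these values do not tell whether such genes were expressed.

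**Figure D3:**
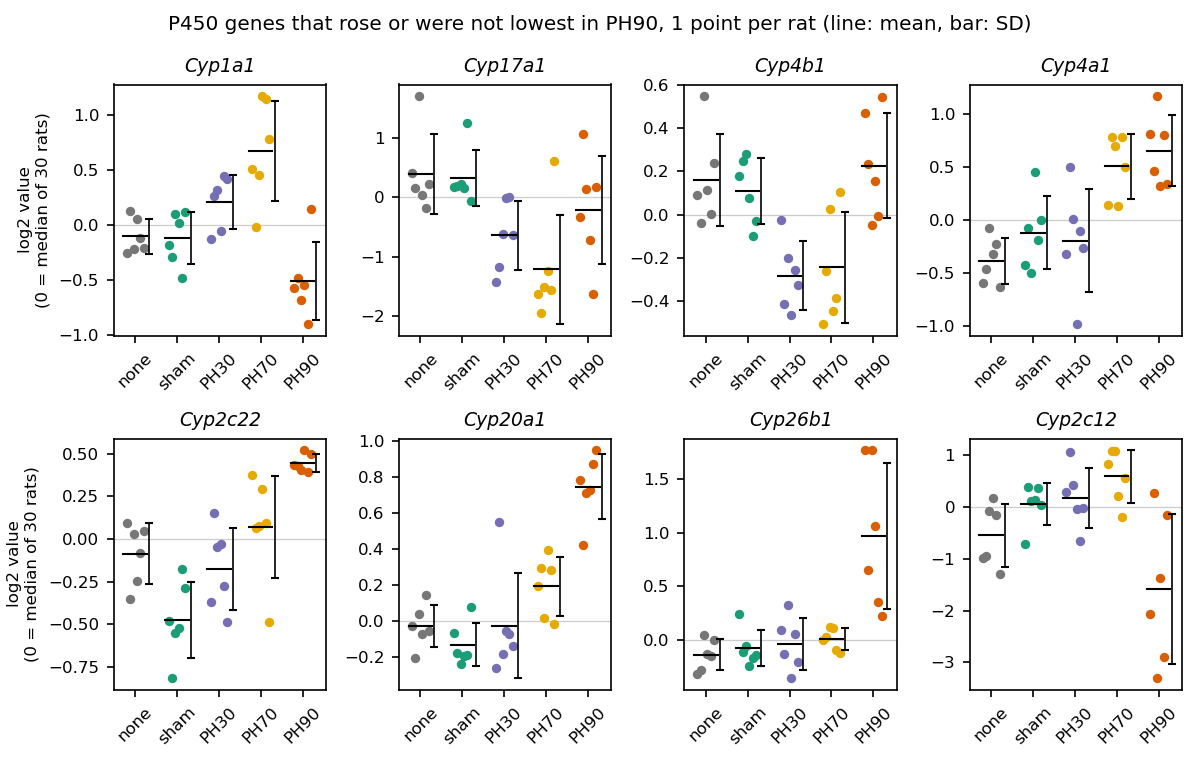
Centred log2 value (vertical axis, 0 is the median of the 30 rats) of 8 P450 genes, with 1 point per rat. Cyp2c12 fell in PH90, and the others rose there or had their extreme in another group. The group mean is a line, the SD is a bar, and "none" is the unoperated group. Cyp1a1 peaks in PH70 and Cyp17a1 is lowest there, Cyp4b1 is low in PH30 and PH70, Cyp2c22, Cyp20a1 and Cyp26b1 are highest in PH90, and Cyp2c12 spreads widely in PH90.

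In direct comparisons of the resections, more P450 genes were called between 70% and 90% than between 30% and 70%. In PH70 against PH30, 1 P450 gene was lower (Cyp2c23, -0.48, SE 0.12, adjusted p = 0.039) and 1 higher (Cyp4a1, 0.70, SE 0.19, adjusted p = 0.047), against 0.512% and 1.76% of all genes. Both calls were lost without any one of 5 PH30 rats other than rat 95 and 5 PH70 rats other than rat 139, and without rats 95 and 139 together 5 genes were lower and 3 higher, with Cyp2b2, Cyp2d2, Cyp2j3 and Cyp4f4 added to the lower and Cyp20a1 and Cyp2c22 to the higher. Without rat 95 alone 4 were lower and 2 higher, and without rat 139 alone 3 and 2. No share of all genes was taken without these rats, so those counts are given as values alone. In PH90 against PH70, 26 genes were lower and 6 higher, against 10.4% and 14.1% of all genes. After quantile normalization, which gives every array the same spread of centred values, 15 were lower and 5 higher, with no share of all genes taken. In PH90 against PH30, 29 were lower and 8 higher, against 13.1% and 18.4%. A test for any difference among the 3 resections called 35 of 68 genes (32.4% of all genes).

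Calls in PH90 against sham are given by gene neighbourhood, beside 14.7% of all genes lower and 19.9% higher. With so few genes in most neighbourhoods, the counts are given as values alone. Members with at most 15 other protein-coding genes between them, in groups of at least 3, formed 8 neighbourhoods. All 4 Cyp2d genes of chromosome 7 were lower, as were 4 of 6 Cyp4f genes of that chromosome, and 0 of the 3 Cyp11b genes were called. On chromosome 1, 7 of 14 genes from Cyp2s1 to Cyp2t1 were lower and 7 not called. The stretch from Cyp26c1 to Cyp2c22 on the same chromosome held 4 lower, 2 higher and 2 not called of 8. Lower and higher calls also stood together in the Cyp3a neighbourhood of chromosome 12 (2 lower and 1 higher of 4) and the Cyp2j neighbourhood of chromosome 5 (2 lower and 1 higher of 4). From Cyp4x1 to Cyp4b1, also on chromosome 5, 0 were lower and 1 of 4 was higher, Cyp4a1.

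**Figure D4:**
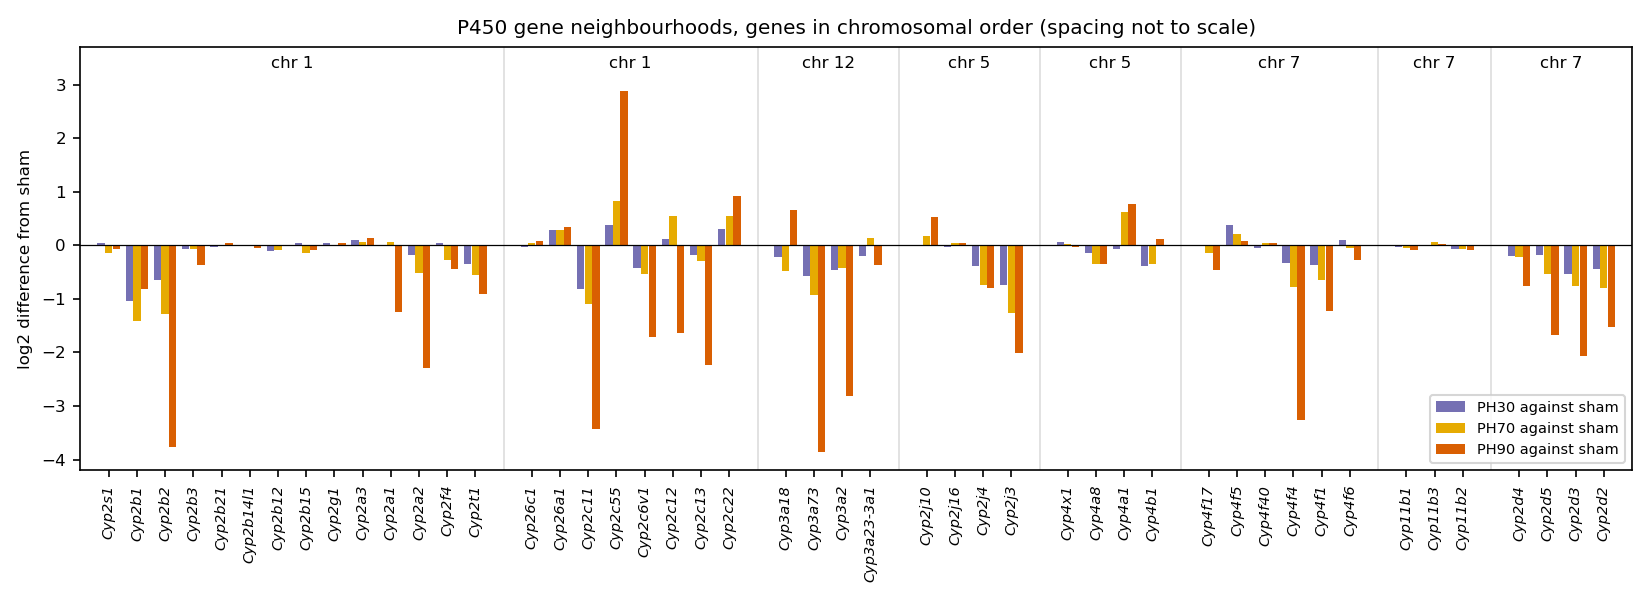
Log2 difference from sham (vertical axis, bars from 0) in PH30, PH70 and PH90 for the members of the 8 P450 neighbourhoods, in chromosomal order with spacing not to scale. Bars of both signs stand side by side in the Cyp2c, Cyp3a and Cyp2j neighbourhoods, with Cyp2c11 at -3.44 and Cyp2c55 at 2.87.

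Promoters were found in RefSeq for 52 of the 68 genes. In the 250 bases before the start, both strands read, TATAAA occurred in 25% of these and 12.9% of 33469 promoters of all genes. AGGTCA occurred in 30.8% and 14.1%, TTNNGCAA in 30.8% and 9.22%, and TTCNNNGAA in 13.5% and 7.67%. TGTTTAC occurred in 7.69% and 3.21%, and CAAAGTCCA in 3.85% and 0.338%. Of the 24 genes lower in PH90 that have a promoter sequence, 7 held TATAAA, 8 TTNNGCAA and 6 AGGTCA. Many of the promoters are those of related copies, so the counts are not of independent sequences, and a match of letters is a description of the sequence alone.

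The partners that serve the P450s moved in both directions in PH90, where 14.7% of all genes were lower than in sham and 19.9% higher. Of 9 electron carriers and helper proteins, 6 were lower and 3 higher than in sham, with none left uncalled. P450 reductase itself, Por, was higher (0.88, adjusted p = 6.2e-05), and cytochrome b5, Cyb5a, was lower (-1.75, adjusted p = 1.5e-09). In PH70 neither was called, at 0.044 and -0.20. Of 10 genes of haem synthesis and breakdown, 3 were lower and 1 higher in PH90, a count given as a value alone. Fech, which inserts iron to form haem, was lower (-0.68, adjusted p = 1.0e-05). Hmox1, which degrades haem, was higher (1.13, adjusted p = 1.7e-04).

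Genes for the regulators of P450 genes were mostly lower in PH90, where 14.7% of all genes were lower than in sham and 19.9% higher. Of 12 xenobiotic and nuclear receptors, 8 were lower and 1 higher, with Nr1h4 (the bile acid receptor), Ppara and Nr3c1 (the glucocorticoid receptor) at -1.80, -1.41 and -1.19 on the log2 scale (adjusted p = 3.6e-07, 6.5e-05 and 6.8e-09). Nr1i2, the pregnane X receptor, was higher (0.34, adjusted p = 0.02). Of 9 hepatocyte transcription factors, 5 were lower and 1 higher, Cebpa having fallen most (-1.40, adjusted p = 4.5e-07). Of 8 genes of the growth hormone axis that sets sex-patterned P450s, 6 were lower and none higher, among them Ghr, the growth hormone receptor (-2.37, adjusted p = 1.6e-11), and its target Socs2 (-2.93, adjusted p = 7.4e-06). Of 8 other phase 1 enzymes, 6 were lower and none higher, with a median of -0.62 in PH90, -0.16 in PH70 and -0.20 in PH30. These lists were drawn up with earlier results of these data known.

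Markers of division, inflammation and other cell types are given beside the P450 values, and their part in them was not tested. All 14 mitosis genes were higher in PH70 than in sham, beside 10.5% of all genes. None was called in PH90, and the medians were 2.51 in PH70 and 0.62 in PH90. Of 15 acute phase genes, 1 was lower and 6 higher in PH90. Against unoperated rats, 9 were higher in sham, beside 0.308% of all genes. Of 12 Kupffer cell and macrophage markers, 7 were lower and 1 higher in PH90; their mean over the list ran from -0.016 to 0.23 in sham rats and from -0.59 to -0.025 in PH90 rats. Counts for the remaining lists in PH90 are given as values alone, since 14.7% of all genes were lower and 19.9% higher there: of 10 neutrophil markers 3 were higher, of 11 lymphocyte markers 4 were lower, of 7 sinusoidal endothelial markers 2 were lower and 1 higher, of 9 stellate cell and fibroblast markers 2 were lower and 2 higher, and of 7 bile duct markers 1 was lower and 1 higher.

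**Figure D5:**
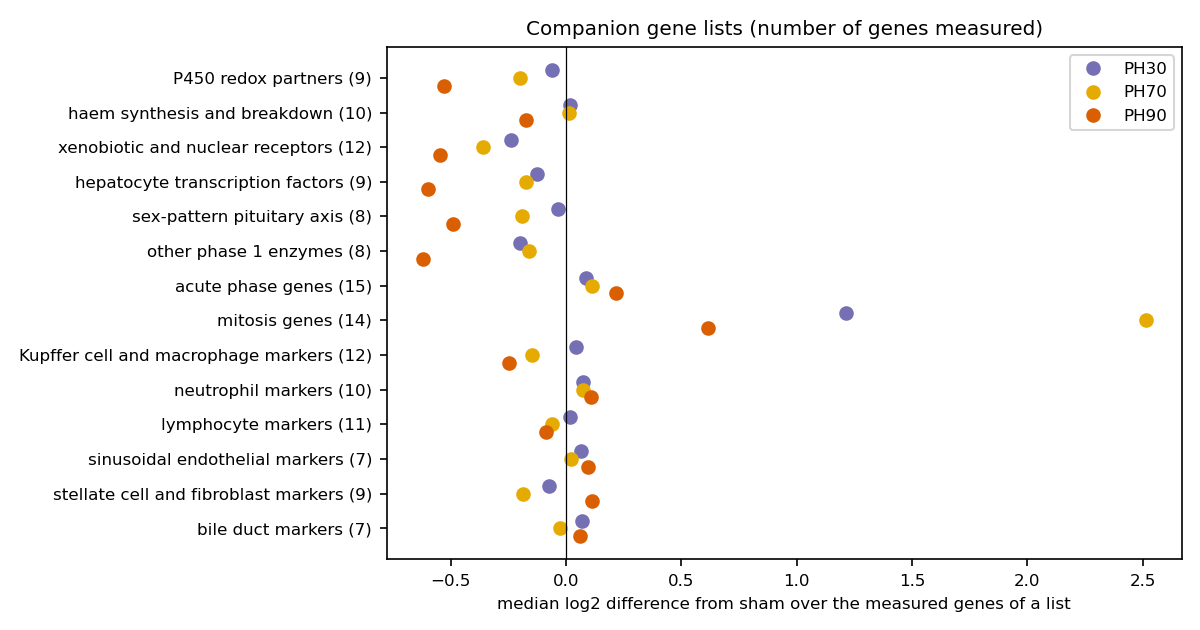
Median log2 difference from sham (horizontal axis) over the measured genes of each of 14 companion lists in PH30, PH70 and PH90, with the number of measured genes in brackets. Receptor, transcription factor and enzyme lists lie below 0 in PH90, between -0.17 and -0.62, and the mitosis list lies highest in PH70 at 2.51.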

How the data were processed

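RNA of 30 rat livers, 1 array each, was used. RMA, a robust multi-array average, was run in Affymetrix Expression Console per the submitters' processing notes, with versions not given in the sources used here. The authors deposited 29489 probe sets on a log2 scale, each with a median of 0 over the 30 arrays within 5e-07, so no filter on low values was possible and the number of arrays limits the precision. Names came from the platform annotation: 18511 probe sets had 1 symbol, 575 had several and 10403 had none. Of the 69 P450 probe sets, the 2 of Cyp2ac1 were averaged, and 3 P450 probe sets with several symbols were not used.

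Differences were fitted with limma 3.58.1 (R 4.3.3) over the 30 arrays and the means of 5 groups, followed by eBayes (25 residual and 3.71 prior degrees of freedom) and Benjamini-Hochberg adjustment over 18166 genes. A difference is the group named first minus the other, SE is its standard error, and a call needs an adjusted p below 0.05. The 3 resections share the sham rats as control. The fit was tested on simulated data. Full statistics were open to 36 measured genes of a fixed list of 42 and, in each of 7 comparisons, to the 6 largest called rises and falls, 41 genes in all; other members are named with a difference and adjusted p. The members and lists were chosen with earlier results of these data known. Alternatives changed the samples in the fit, array weights, prior, normalization, probe sets, control and single rats.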

Additional observations from a re-analysis of the deposited data

Results flagged for a closer look

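In 27 of 235 groups of 6 rats that were looked at for the named P450 genes and family means, 1 rat lay so far from the other 5 that the gap passed Dixon's 95% critical value. Chance alone gives about 1 such group in 20. These flags fell on 14 rats, and no explanation was tested for any of them.

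PH30 rat 95, whose array stood apart over all genes, accounted for 5. It was highest in its group for Cyp20a1 (0.55, others -0.26 to -0.054) and Cyp2r1 (0.60, others -0.095 to 0.16), and lowest for Cyp2j3 (-0.97, others -0.27 to 0.10), Cyp3a73 (-1.05, others -0.26 to 0.15) and Cyp4f4 (-0.99, others -0.037 to 0.43). PH70 rat 139, the other array that stood apart, was highest for Cyp17a1 (0.61, others -1.95 to -1.24) and Cyp4f4 (-0.023, others -0.67 to -0.46) and lowest for Cyp2c22 (-0.48, others 0.063 to 0.38). PH90 rat 106 was lowest for Cyp2j3 (-2.32, others -1.51 to -1.22), Cyp3a18 (-0.68, others 0.71 to 1.39) and Cyp4f5 (-0.49, others -0.079 to 0.11).

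The other flags were scattered. In unoperated rats, rat 148 was highest for Cyp17a1 (1.71) and Cyp26a1 (0.54), rat 152 was highest for Cyp4a8 (1.26), and rat 151 was highest for Cyp2c23 (0.62) and lowest for Cyp4v3 (0.050). In sham, rat 141 was highest for Cyp17a1 (1.26) and Cyp2b1 (1.84), rat 41 was lowest for Cyp2c12 (-0.73) and Cyp4f1 (0.013), and rat 143 was lowest for Cyp1b1 (-0.24). In PH30, rat 65 was highest for Cyp24a1 (0.50) and lowest for Cyp39a1 (-0.40), and rat 99 had the lowest mean of family 3 (-0.89, others -0.13 to 0.070). In PH70, rat 136 was highest for Cyp2c13 (0.12) and rat 58 lowest for Cyp2t1 (-0.50). In PH90, rat 87 was lowest for Cyp11a1 (-0.18).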

How the results depend on the processing

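Of 116 calls for named genes, 101 were kept in every fit that left out 1 rat. Counts in PH90 against sham ran from 27 to 29 lower and 5 to 7 higher without 1 rat, and 25 to 29 and 6 to 7 under the other settings. Without 1 rat, the lower and higher counts ran from 4 to 8 and 0 to 1 in PH30 against sham, 14 to 16 and 2 to 4 in PH70 against sham, 0 to 4 and 0 to 2 in PH70 against PH30, 25 to 27 and 6 to 8 in PH90 against PH70, and 28 to 29 and 7 to 9 in PH90 against PH30. Sham against unoperated gave 0 to 1 lower, and the test over resections 35 to 37. For these fits and the settings below, no share of all genes was taken.

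With only the groups compared in the fit, 4 genes were lower in sham than unoperated rats, 0 higher in PH30 than sham, and 0 lower and 0 higher in PH70 than PH30. With array weights, 3 were lower in sham, and 6 lower and 3 higher in PH70 than PH30. After quantile normalization, 2 were lower in sham, 13 lower in PH30 than sham, 2 lower in PH70 than PH30 and 15 lower in PH90 than PH70. Without PH30 rat 95 and PH70 rat 139, 2 were lower in sham, 0 higher in PH30 than sham, and 5 lower and 3 higher in PH70 than PH30. With unoperated rats as control, 2 were higher in PH30 and 2 in PH70.

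Quantile normalization turned Cyp2j3 in PH90 against PH70 to 0.17 (adjusted p = 0.8, from -0.76), cost 16 named calls and added 12; beyond the equal spread it forces on arrays, the cause was not tested. Cyp3a18 in PH90 against sham was also lost with only the groups compared (adjusted p = 0.092) and after quantile normalization (0.42, adjusted p = 0.23). The Cyp2b1 call there was lost under the same settings and with array weights (adjusted p = 0.078). No paired analysis was possible because no rat number is shared between groups. Signal over background is not known for centred values, so weak probes cannot be set apart.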
